A study of Mus musculus with 6 samples.

Results

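Expression of 32 listed DNA replication and S phase genes was compared between control and Setd5sh motor neuron progenitors. The members are a list of gene symbols, and all 32 symbols mapped to an Ensembl identifier among the 55400 genes of the deposited table. All 32 also passed the filter on low values, a mean of at least 1 FPKM (fragments or reads scaled by exonic length and by the library's total count) over the 6 libraries, which 12199 genes passed. No member passed the test between the groups, and none had FPKM ranges that were separate between them. In 22 of the 32 the log2 fold change, Setd5sh minus control, was above 0, among them all 6 subunits of the MCM helicase. The members furthest below 0 were Pola1, Hells and Nasp, and each of these was far higher in control replicate 1 than in any other library.

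The cells were motor neuron progenitors made from C57BL/6 mouse embryonic stem cells, which had been grown on mouse embryonic fibroblasts stopped from dividing with mitomycin C. Embryoid bodies of 500 cells were formed on day 0, retinoic acid (1 µM) and the hedgehog pathway agonist SAG (0.5 µM) were added from day 2, and RNA was taken on day 4. The control group and the Setd5sh group held 3 libraries each, all with the genotype given as WT. Doxycycline, an inducer of tet-controlled transgenes, was given at 1 µg/mL for 36 h before harvest, in the same words for both groups. The labels do not say whether control cells carried another hairpin, whether a line was a single clone, or whether replicates were grown separately, so the p-values speak only for the spread among these libraries, possibly a technical one.

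DNA is copied once per cell cycle in S phase. In G1, the licensing factor CDC6 helps the origin recognition complex to load the ring of MCM2 to MCM7, and at the start of S phase CDC45 and the GINS complex turn this ring into the active helicase. Polymerase alpha and primase then lay primers, PCNA clamps the polymerases that extend them, ribonucleotide reductase and thymidylate synthase supply nucleotides, and histone chaperones pack the new DNA. Many of these genes are transcribed by E2F factors once cyclin-dependent kinases relieve their repression by the RB family. Neural progenitors divide and express this programme, and the neurons they give rise to leave the cycle and silence it. RNA levels in a mixed culture carry the share of cycling cells as well as the level per cell: fewer cells of a type and less RNA per cell cannot be told apart here.

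RefSeq promoter windows on GRCm38.p6, from 250 bases before to 50 bases after an annotated start, were found for 27 of the members, with 30 windows between them. The E2F words TTTCCCGC, TTTGGCGC, TTTCGCGC and TTTGCCGC, were searched on both strands, and overlapping matches were counted once per window. They occurred in 12 of the 30 member windows, or 40%, against 744 of all 32851 windows, or 2.26%. The 12 members were Mcm3, Mcm5, Mcm6, Mcm7, Cdc6, Cdca7, Clspn, Dtl, Hells, Pola1, Ubr7 and Uhrf1. The word CCAAT, on either strand, was in 22 of the member windows, or 73.3%, and in 37.4% of all windows. A match describes the letters in a window and does not show that a factor bound there. The 180 bases shown for 3 members, 5′ to 3′ on the gene's strand with the E2F words in capitals, show the same kind of word upstream of members whose fold changes differed in sign. Mcm5 was among the higher log2 fold changes of the list, Mcm6 was near its median, and Pola1 had the lowest.
Mcm5 (GRCm38.p6, chr8:75109329-75109508, plus strand): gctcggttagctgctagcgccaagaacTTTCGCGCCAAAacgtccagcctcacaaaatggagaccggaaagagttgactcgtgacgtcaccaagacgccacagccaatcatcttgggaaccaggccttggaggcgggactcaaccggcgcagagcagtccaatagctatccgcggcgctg
Mcm6 (GRCm38.p6, chr1:128359706-128359885, minus strand): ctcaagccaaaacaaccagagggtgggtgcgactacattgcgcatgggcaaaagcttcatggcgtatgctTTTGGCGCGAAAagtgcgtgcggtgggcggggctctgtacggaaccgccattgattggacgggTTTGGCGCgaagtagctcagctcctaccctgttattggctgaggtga
Pola1 (GRCm38.p6, chrX:93632156-93632335, minus strand): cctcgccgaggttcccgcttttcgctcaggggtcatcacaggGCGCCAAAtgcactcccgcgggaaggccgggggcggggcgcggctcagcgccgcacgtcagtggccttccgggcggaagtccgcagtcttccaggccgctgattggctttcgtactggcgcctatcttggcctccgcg
In Mcm5, and at the first match in Mcm6, the capitals are 2 words on opposite strands that overlap. Pola1 carries 1 word, read on the opposite strand.

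Total counts per library ranged from 19639303 to 32046466, and the lowest count of any member in any library was 219, for Brip1. Setd5, the targeted gene, was at 22.21, 18.79 and 16.74 FPKM in control replicates 1, 2 and 3 and at 14.41, 13.45 and 12.92 FPKM in the Setd5sh replicates. Every Setd5sh library was below every control library, with a mean at 70.6% of that of controls. The log2 fold change of Setd5 was -0.51 (SE 0.16), which did not pass edgeR's quasi-likelihood test with Benjamini-Hochberg adjustment over all genes (unadjusted p = 0.0143, adjusted p = 0.995). With each library left out in turn, the fold change of Setd5 ranged from -0.61 to -0.36, the last being the value without control replicate 1. The markers of motor neuron progenitors were present in all libraries, summing to between 396.8 and 467.0 FPKM in controls and between 455.1 and 551.6 FPKM in Setd5sh. The 15 neuron markers summed to between 47.3 and 63.8 FPKM in controls and between 64.8 and 104.9 FPKM in Setd5sh. The 8 postmitotic motor neuron markers leaned the other way, at 14.3 to 24.7 FPKM in controls and 10.5 to 19.7 FPKM in Setd5sh. The groups overlapped, each Setd5sh sum was below its numbered control, and 5 of the 8 markers were under 1 FPKM in every library. The 9 mesoderm and endoderm markers summed to between 8.8 and 14.6 FPKM over all libraries. The 10 pluripotency markers summed to 85.5 FPKM in control replicate 2 and 64.0 FPKM in Setd5sh replicate 2. Their sums were 20.2 and 28.2 FPKM in control replicates 1 and 3, and 28.3 and 9.6 FPKM in Setd5sh replicates 1 and 3. Of 11 fibroblast markers, 8 were under 1 FPKM in every library, Lum was at 0 in some, and their sum was between 8.9 and 13.1 FPKM. The part of these other cell types in the results on replication genes was not tested.

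None of the 32 members passed edgeR's quasi-likelihood test at an adjusted p under 0.05, where the smallest adjusted p was 0.995, and 0% of the 12199 tested genes did. None reached an unadjusted p under 0.05 either, against 149 genes, or 1.22%, in all; the smallest among members was 0.13, for Uhrf1. DESeq2 called 0 genes as well, with 221 at an unadjusted p under 0.05. The members' median log2 fold change was 0.057, and that of all tested genes was -0.043. A log2 fold change above 0 was found for 68.8% of members and 42.6% of all tested genes. Groups did not overlap in FPKM for 0 members, while 3.07% of tested genes were without overlap and higher in Setd5sh and 2.14% without overlap and lower. In FPKM, Setd5sh was higher than the same-numbered control in all 3 pairs for 7 of 32 members, against 12.8% of tested genes. The 7 were Cdc6, Mcm6, Cdc45, Tyms, Uhrf1, Cdca7 and E2f8. Setd5sh was lower in all 3 pairs for 0 members, against 12.1%. On the TMM-scaled levels used in the test, Mcm4 was also higher in each pair, by log2 differences of 0.075, 0.012 and 0.057. The numbers 1 and 3 pair the libraries only by weak correlations in the data. Fitting the number as a block left 0 members at an unadjusted p under 0.05 in edgeR, against 2.69% of tested genes, and with GC and length offsets as well it left 0, against 7.07%. With no filter on low values, where 0.248% of genes passed edgeR's adjusted threshold, 0 members did. In that fit 3 members (Pola1, Hells and Nasp, all below 0) were at an unadjusted p under 0.05, against 4.69% of genes. Without control replicate 3 there were also 3 (Mcm5 and Uhrf1 above 0, Pola1 below 0), against 7.89%, and without control replicate 1 there was 1 (Clspn, above 0), against 2.96%.

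Measured as the median over members of each library's log2 level relative to the control mean, the list stood at -0.009, -0.186 and 0.159 in control replicates 1, 2 and 3. In the Setd5sh replicates it stood at 0.118, -0.039 and 0.182. The groups overlapped, and the controls alone spanned nearly the whole range. In both groups the libraries numbered 2 were the lowest and those numbered 3 the highest.

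**Figure D1:**
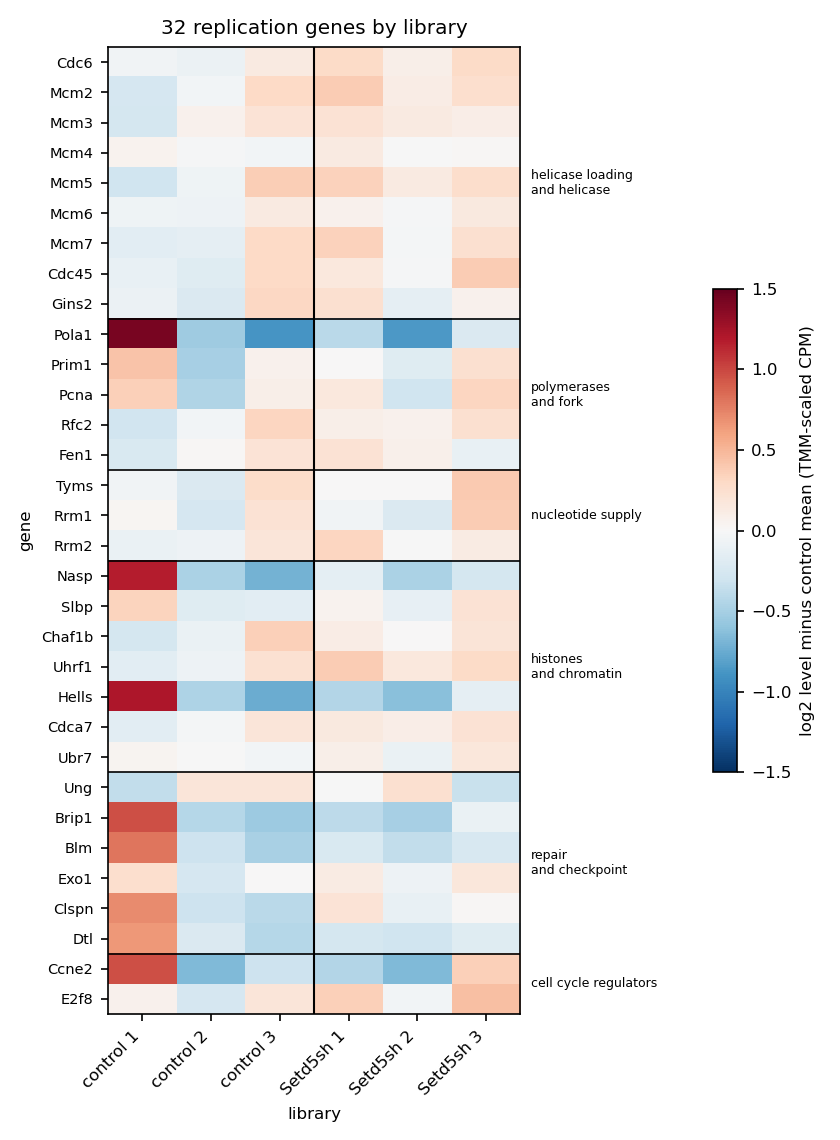
Log2 level of each of the 32 members in each of the 6 libraries relative to that gene's control mean, as colour, with rows grouped by role. Control replicate 1 holds both the highest values, for members such as Pola1, Hells and Nasp, and low values for most MCM subunits, and no column of the Setd5sh group stands apart from all controls.

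Among the genes that load and activate the replicative helicase, all 9 log2 fold changes were above 0, with a median of 0.163, and none passed the test. That median was 0.096 without control replicate 1 and 0.080 with offsets for GC content and length, where Gins2 was below 0. The MCM ring was the most abundant assembly of this group, and its 6 subunits had control means from 76.9 to 156 FPKM. Mcm2 was at 61.12, 76.66 and 92.90 FPKM in control replicates 1 to 3 and at 97.20, 83.74 and 91.30 FPKM in Setd5sh replicates 1 to 3, a log2 fold change of 0.23 (SE 0.18). Control replicate 1 was the lowest library and Setd5sh replicate 1 the highest, and control replicate 3 lay within the range of the Setd5sh group. Mcm5, which with MCM2 forms the gate through which the ring opens around DNA, was at 86.49, 109.32 and 142.35 FPKM in controls and 138.47, 124.08 and 133.75 FPKM in Setd5sh, a log2 fold change of 0.22 (SE 0.19). The highest Mcm5 level of all was in a control, replicate 3, so the groups overlapped. Mcm7 was at 133.17, 145.52 and 189.18 FPKM in controls and 194.28, 153.77 and 184.27 FPKM in Setd5sh, a log2 fold change of 0.18 (SE 0.19). Control replicate 3 again lay within the Setd5sh range.

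Mcm3 was at 95.69, 129.43 and 136.87 FPKM in controls and at 137.29, 133.24 and 129.05 FPKM in Setd5sh, with a log2 fold change of 0.14 (SE 0.16). Control replicate 1 alone was low, and the other 5 libraries were close together. Mcm6 was at 87.33, 92.95 and 104.14 FPKM in controls and 98.01, 95.79 and 105.53 FPKM in Setd5sh, with a log2 fold change of 0.07 (SE 0.14). It was higher in Setd5sh in each pair, but the difference of the means was less than the SD of either group. Mcm4, whose protein sits in the catalytic core of the helicase with MCM6 and MCM7, was at 81.34, 83.46 and 79.05 FPKM in controls and 88.01, 82.71 and 82.94 FPKM in Setd5sh. Its log2 fold change was 0.05 (SE 0.13), the smallest of the 6 subunits, and its levels varied least between libraries.

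The median log2 fold change of the 6 MCM subunits was 0.159, and control replicate 1 was the lowest library for 5 of them, against 37% of all tested genes. Summed over the ring, MCM RNA was 545.1, 637.3 and 744.5 FPKM in controls and 753.3, 673.3 and 726.8 FPKM in Setd5sh. Replicate 1 of the controls had the lowest sum, and the Setd5sh sums overlapped that of control replicate 3. Without control replicate 1 the median of the 6 was 0.091, and without control replicate 3 it was 0.293, with all 6 above 0 in both cases. Mcm5 was at 0.096 and 0.43 in these fits. The proteins form a ring with 1 copy of each, but the RNA levels per length were unequal: the highest subunit was between 1.86 and 2.39 times the lowest within a library. Mcm7 was the highest in all 6 libraries, and the lowest was Mcm2 in control replicates 1 and 2 and Mcm4 in the rest.

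**Figure D2:**
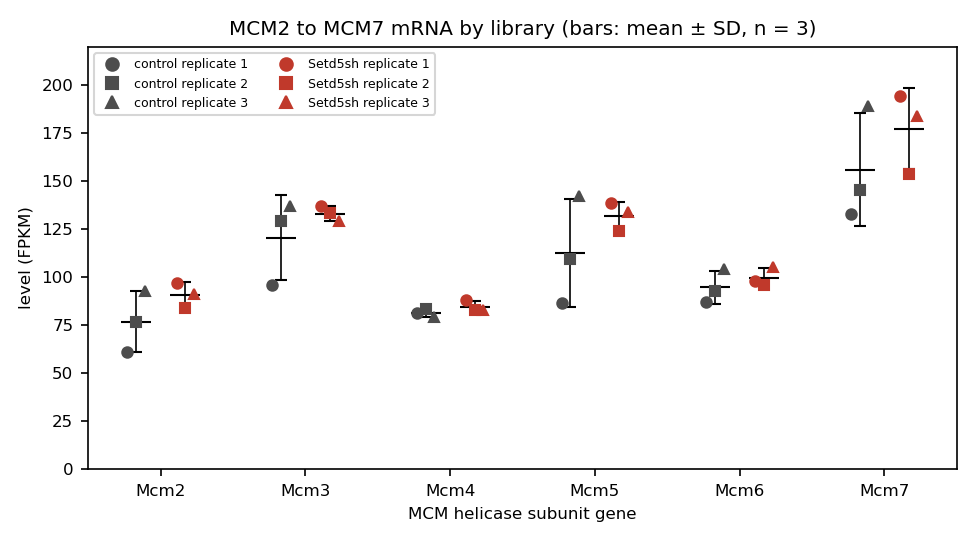
FPKM of the 6 MCM subunits in each library, with points for replicates and bars for the group mean ± SD (n = 3). Control replicate 1 is the lowest of 6 libraries for 5 subunits, and control replicate 3 lies within or above the Setd5sh values for Mcm2, Mcm5 and Mcm7.

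The other 3 genes of the group were expressed at lower levels. Cdc6, the licensing factor, averaged 20.7 ± 1.83 FPKM (SD, n = 3) in controls and 24.2 ± 1.68 FPKM (SD, n = 3) in Setd5sh, with a log2 fold change of 0.22 (SE 0.14). Cdc6 was higher in Setd5sh in each pair, but the lowest Setd5sh library, at 22.30 FPKM, was below the highest control library, at 22.68 FPKM. Cdc45 and Gins2, which complete the active helicase with the MCM ring, were at log2 fold changes of 0.16 for the first (SE 0.18) and 0.05 for the second (SE 0.19). Both control means, 20.43 and 20.98 FPKM, were several times below those of the ring.

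Of the 5 genes for polymerase, primase and fork proteins, 3 had log2 fold changes above 0 and the median was 0.045, or 0.229 without control replicate 1. Pola1, the catalytic subunit of polymerase alpha (chrX:93304767-93632155, minus strand), was at 16.01, 4.45 and 3.37 FPKM in control replicates 1 to 3 and at 4.66, 3.50 and 5.38 FPKM in Setd5sh. Control replicate 1 stood at 4.10 times the mean of the other controls. Setd5sh replicates 1 and 3 lay above control replicates 2 and 3, and Setd5sh replicate 2 lay between those controls. The log2 fold change of Pola1, -0.85 (SE 0.57), was the lowest of all members, and became 0.24 without control replicate 1. Rfc2, a subunit of the loader that places PCNA on DNA, was at 16.15, 20.55 and 25.59 FPKM in controls and 21.50, 21.84 and 24.32 FPKM in Setd5sh. Its log2 fold change was 0.11 (SE 0.18), and the controls spanned a wider range than Setd5sh on both sides.

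Prim1, the primase catalytic subunit and partner of Pola1, averaged 15.8 ± 4.34 FPKM in controls and 15.8 ± 2.30 FPKM in Setd5sh (SD, n = 3 each). Pcna, the sliding clamp, was the second most abundant member by control mean, after Rrm2, at 183 ± 42.9 FPKM, and averaged 191 ± 39.0 FPKM in Setd5sh (SD, n = 3 each). In both groups the library numbered 2 had the lowest Pcna level. Fen1, the nuclease that trims Okazaki fragments, had a log2 fold change of 0.05 (SE 0.18). A processed copy of Pcna, Pcna-ps2, was listed separately at a mean of 1.27 FPKM, and how reads shared with such copies were counted is not known here.

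All 3 genes of nucleotide supply had log2 fold changes above 0, with a median of 0.131, and none passed the test. Rrm2, the regulated subunit of ribonucleotide reductase, was at 171.10, 188.84 and 216.31 FPKM in controls and 236.22, 193.76 and 210.40 FPKM in Setd5sh, with a log2 fold change of 0.15 (SE 0.16). The highest Setd5sh library was above all controls, and the other Setd5sh libraries lay between control replicates 2 and 3. Tyms, thymidylate synthase, was at 13.73, 13.18 and 17.90 FPKM in controls and 14.71, 15.13 and 19.60 FPKM in Setd5sh, with a log2 fold change of 0.13 (SE 0.19). Each Setd5sh library exceeded its numbered partner, and replicate 3 was the highest in both groups. Rrm1, the large subunit of the reductase, averaged 40.3 ± 5.93 FPKM in controls and 42.1 ± 9.23 FPKM in Setd5sh (SD, n = 3 each).

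Of the 7 genes that handle histones or maintain chromatin, 5 had log2 fold changes above 0 and the median was 0.060, or 0.200 without control replicate 1. Uhrf1 (chr17:56303321-56323486, plus strand), which recognises hemimethylated DNA behind the fork and recruits the maintenance methyltransferase, was at 99.47, 114.28 and 135.62 FPKM in controls and 148.89, 131.85 and 141.97 FPKM in Setd5sh. The lowest Setd5sh library was below control replicate 3, and the other Setd5sh libraries were above every control. Its log2 fold change, 0.27 (SE 0.16), was the highest of all members, and its p in edgeR's quasi-likelihood test was 0.13 before adjustment and 0.995 after Benjamini-Hochberg adjustment. Without control replicate 1 the fold change of Uhrf1 was 0.20. Hells, a chromatin remodeller needed for DNA methylation, was at 42.35, 14.30 and 11.32 FPKM in controls and 13.87, 12.60 and 17.39 FPKM in Setd5sh, with a log2 fold change of -0.66 (SE 0.48). Only control replicate 1 was high, at 3.31 times the mean of the other controls, and without it the fold change was 0.22.

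Nasp, a chaperone of histones H3 and H4 (chr4:116601052-116627941, minus strand), was at 154.91, 52.86 and 43.49 FPKM in controls and 63.35, 52.29 and 59.57 FPKM in Setd5sh. Control replicate 1 again stood alone, at 3.22 times the other controls, and 2 of the Setd5sh libraries lay above control replicates 2 and 3. The log2 fold change of Nasp was -0.55 (SE 0.46) with all libraries and 0.31 without control replicate 1. Chaf1b, a subunit of the CAF-1 assembly factor, Slbp, which binds the stem loop of histone mRNAs, Cdca7, which acts with Hells, and Ubr7 had log2 fold changes from 0.03 to 0.14. Their groups overlapped in every case. Cdca7 averaged 95.3 ± 13.0 FPKM in controls and 105.8 ± 4.12 FPKM in Setd5sh (SD, n = 3 each), while its partner Hells was less abundant in both groups.

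**Figure D3:**
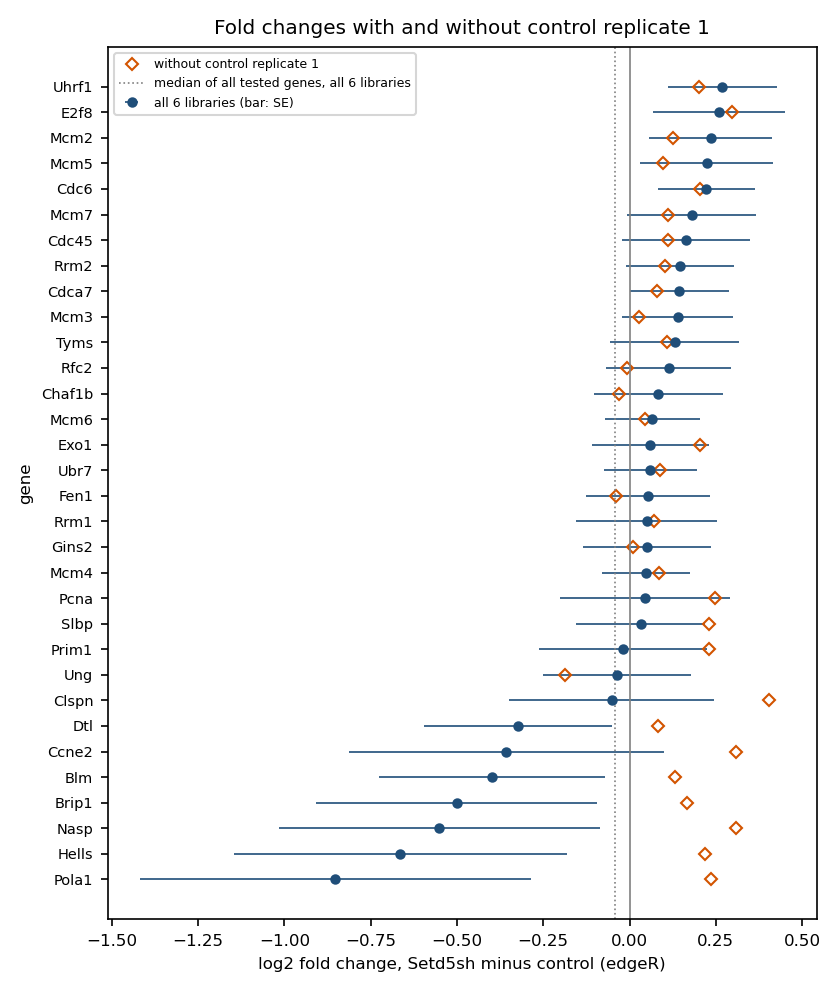
Log2 fold change, Setd5sh minus control, of each member with all libraries (bars, SE) and without control replicate 1. With all libraries 22 of 32 lie above 0, without control replicate 1 28 of 32 do, and the members at the low end, Pola1, Hells and Nasp, move from below to above 0.

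Among the 6 genes of repair and checkpoint, 1 had a log2 fold change above 0, Exo1 at 0.06, and the median was -0.187. Without control replicate 1 the median of these 6 was 0.15. Brip1, a helicase of interstrand crosslink repair and the least abundant member, was at 4.07, 1.67 and 1.48 FPKM in controls and 1.62, 1.56 and 2.03 FPKM in Setd5sh. Blm, the Bloom syndrome helicase, was at 14.83, 7.35 and 6.26 FPKM in controls and 7.45, 6.98 and 7.51 FPKM in Setd5sh. In both genes control replicate 1 was by far the highest and the other 5 libraries were close together. The log2 fold change was -0.50 (SE 0.41) for Brip1 and -0.40 (SE 0.33) for Blm, and without control replicate 1 it was 0.17 and 0.13.

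Clspn, the claspin adaptor that passes the replication stress signal from ATR to CHK1, is named because of its values. It was at 17.33, 9.25 and 8.34 FPKM in controls and 12.56, 10.40 and 11.25 FPKM in Setd5sh. Control replicate 1 was above, and control replicates 2 and 3 below, every Setd5sh library. With all libraries the log2 fold change of Clspn was -0.05 (SE 0.30), and without control replicate 1 it was 0.41 with an unadjusted p of 0.0159 in edgeR's quasi-likelihood test, the smallest among members there and one that did not pass after Benjamini-Hochberg adjustment. Dtl, the substrate receptor of the ubiquitin ligase that acts at PCNA, was at a log2 fold change of -0.32 (SE 0.27), which became 0.08 without control replicate 1. Ung, the uracil glycosylase, was at -0.04 (SE 0.22) and at -0.19 without that library.

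With all libraries, the 2 members that regulate entry into S phase had log2 fold changes of opposite sign, and without control replicate 1 both were above 0. E2f8, an E2F family repressor expressed in S phase, was at 7.73, 6.71 and 8.66 FPKM in controls and 9.69, 7.59 and 10.53 FPKM in Setd5sh. Every Setd5sh library was above its numbered partner, but Setd5sh replicate 2 was below control replicates 1 and 3. Its log2 fold change was 0.26 (SE 0.19), the next highest after Uhrf1. Ccne2, cyclin E2, the CDK2 partner of the G1 to S transition, was at 11.46, 4.00 and 4.90 FPKM in controls and 4.45, 3.93 and 7.88 FPKM in Setd5sh. Control replicate 1 was the highest and Setd5sh replicate 3 the next. The log2 fold change of Ccne2 was -0.36 (SE 0.46), or 0.31 without control replicate 1, where that of E2f8 was 0.30. If counting did not use strand, reads of Ints8, on the opposite strand and overlapping Ccne2 over 5622 bases, could change the count of Ccne2. The same limit holds for other members: 13 in all overlap an annotated gene on the opposite strand, and 7 overlap a protein-coding one.

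In 8 members control replicate 1 was over 1.5 times the mean of the other controls: Pola1, Hells, Nasp, Brip1, Ccne2, Blm, Clspn and Dtl. These 8 were picked out by their values, and 20.4% of all tested genes met the same limit. All 8 had log2 fold changes below 0 with all libraries, a median of -0.45, and all 8 were above 0 without control replicate 1, a median of 0.23. Of the other 24 members, 22 were above 0, with a median of 0.099 with all libraries and 0.100 without control replicate 1. The limit sets control replicate 1 against the other controls, so it also favours genes that are low in those. The directions of the 8 and of the other 24, with and without that library, are thus affected by the choice. Over all 32 members, on TMM-scaled levels, Setd5sh was the higher library for 19 in pair 1, 25 in pair 2 and 22 in pair 3, or 59.4, 78.1 and 68.8%. The shares over all tested genes were 48.8, 49.8 and 48.6%.

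The levels of libraries relative to the others of their group moved with GC content, most in control replicate 1. GC content was that of the longest annotated transcript of each gene. The 8 members had a median GC content of 41.3%, from 36.3 to 49.1%, and the other 24 a median of 49.2%, from 43.3 to 53.8%. Over the 32 members, the log2 level of control replicate 1 relative to the other controls had a Spearman correlation of -0.82 with GC content, and over all tested genes with a GC value it was -0.62. The same correlation over the members was 0.68 and 0.79 for control replicates 2 and 3, each set against the other controls, and 0.49, 0.41 and -0.57 for Setd5sh replicates 1, 2 and 3, each set against the other Setd5sh libraries. In this measure a trend in a single library gives its group mates the opposite sign, so the values do not show separate shifts. Setd5sh replicate 3 had the same sign as control replicate 1, and over all tested genes it stood at -0.46. All genes were split into 10 equal bins by GC content. The median log2 level of control replicate 1 relative to the other controls ran from 1.11 in the lowest bin to -0.42 in the highest. Genes within a library share its preparation and depth and are not independent replicates, so these correlations are descriptions without a test. The correlation of the log2 fold change itself with GC content over the members was 0.77 with all libraries and -0.47 without control replicate 1. With offsets that take out a library's smooth dependence on GC content and gene length, it was 0.30, 22 members were above 0, the range narrowed to between -0.45 and 0.19, and Pola1 was still the lowest. The part of library composition in the fold changes beyond these fits was not tested.

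**Figure D4:**
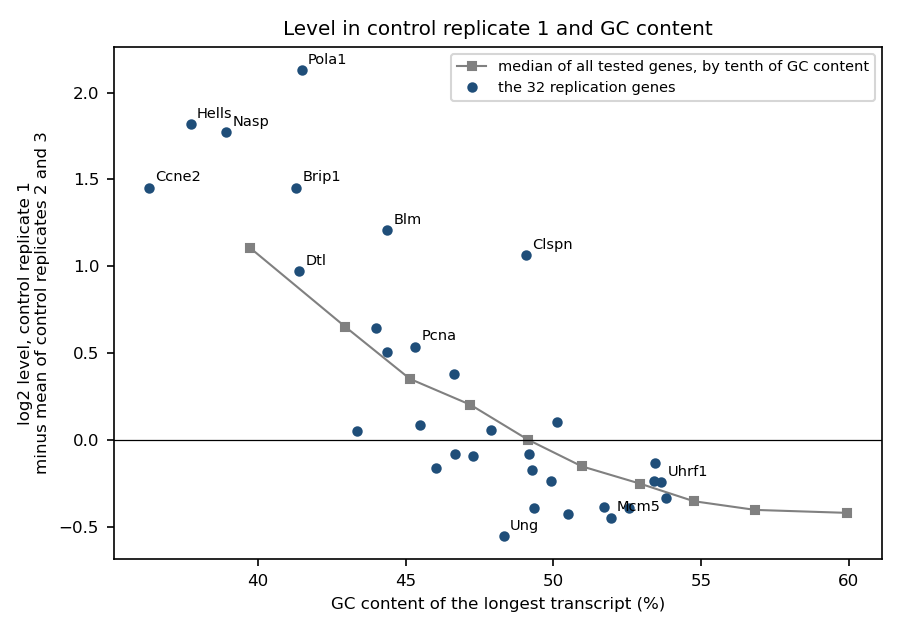
GC content in percent of the longest transcript of each member, against the member's log2 level in control replicate 1 minus the other controls. The trend of all tested genes is drawn in 10 bins of GC content. Members of low GC content such as Ccne2, Hells and Nasp lie far above 0, and members of high GC content such as Mcm3 and Mcm7 lie below it.

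The SD of the log2 level was larger in controls than in Setd5sh for 27 of 32 members, or 84.4%, and for 69.4% of all tested genes. The median SD over members was 0.275 in controls, 0.163 in Setd5sh and 0.191 for control replicates 2 and 3 alone, and over all tested genes it was 0.300, 0.184 and 0.142. The third value of each set is an SD of 2 libraries, so it is not directly comparable with those of 3. Without control replicate 1, 28 of 32 members had a log2 fold change above 0, with a median of 0.112 against 0.006 over all tested genes. The 4 that did not were Rfc2, Fen1, Chaf1b and Ung, each between -0.19 and -0.01. No single library left out moved the members' median below 0: it stayed between 0.026 and 0.160.

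Further genes of the same programme were read from lists chosen by function, with earlier results of these data known. Of 77 other DNA replication genes, 41 had log2 fold changes above 0, the median was 0.013, and 0 passed the test; 3 were without overlap and higher in Setd5sh and 2 without overlap and lower, near the shares over all tested genes (3.07 and 2.14%). Chaf1a, the large CAF-1 subunit and partner of Chaf1b, was at 19.87, 21.60 and 21.77 FPKM in controls and 27.76, 24.05 and 22.81 FPKM in Setd5sh, with a log2 fold change of 0.23 (SE 0.14). Every Setd5sh library exceeded every control. The same held for Ticrr, which with MTBP fires licensed origins, at 6.54 to 7.27 FPKM in controls and 7.40 to 8.30 FPKM in Setd5sh. Asf1b, a histone chaperone that feeds CAF-1, was at a log2 fold change of 0.31 (SE 0.19) with overlapping groups. At the other end, Atr, the replication stress kinase, was at 4.64, 1.18 and 1.00 FPKM in controls and 1.10, 1.14 and 1.45 FPKM in Setd5sh. As in Pola1, only control replicate 1 was high. The log2 fold changes of Atr, Npat, which drives histone gene transcription, and Orc4 of the origin recognition complex were -0.93, -0.68 and -0.56, and 0.20, 0.04 and 0.04 without control replicate 1.

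Among E2F and RB regulators, 12 of 18 tested genes had log2 fold changes above 0, the median was 0.082 and 0 passed. E2f7, which acts with E2f8, was at 4.90, 5.20 and 5.56 FPKM in controls and 6.77, 5.12 and 6.65 FPKM in Setd5sh, with a log2 fold change of 0.24 (SE 0.17). As in E2f8, Setd5sh replicates 1 and 3 lay above every control and replicate 2 did not. E2f2, an activating E2F, and Cdc25a, the phosphatase that activates CDK2, were at 0.27 and 0.18, and Cdc25a was without overlap, from 17.74 to 21.70 FPKM in controls and from 22.04 to 24.06 FPKM in Setd5sh. Rb1, Tfdp2 and Fbxo5 were at -0.48, -0.32 and -0.12, and at 0.01, 0.06 and 0.08 without control replicate 1.

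The G2 and mitosis genes, active later in the cycle, had 14 of 42 log2 fold changes above 0 and a median of -0.078, and 0 passed. In this list the library that stood apart was the same: medians were 0.283, -0.223 and -0.126 in control replicates 1, 2 and 3 and between -0.191 and 0.002 in Setd5sh, and without control replicate 1 the list's median fold change was 0.070. Cenpf, Kif20b and Smc4 had the lowest p of the genes below 0, with log2 fold changes of -1.31, -1.24 and -0.98, and Cenpf was at 25.45 FPKM in control replicate 1 and between 3.14 and 5.11 FPKM in the other 5 libraries. Aurka, Ube2c and Mybl2 were at 0.22, 0.21 and 0.19. Of 9 tested genes of cell cycle exit, 5 were above 0 and 0 passed. Cdkn1a, the p21 inhibitor of cyclin-dependent kinases, was at 10.89, 25.61 and 18.74 FPKM in controls and 21.52, 29.66 and 21.97 FPKM in Setd5sh, with a log2 fold change of 0.41 (SE 0.28). Control replicate 1 was the lowest by far, and the other control replicates overlapped with Setd5sh. The value was 0.17 without control replicate 1 and 0.69 without control replicate 2. Btg2 and Cdkn2c were at 0.23 and 0.12, and Trp53inp1, Cdkn1b and Btg1 at -0.51, -0.12 and -0.05; without control replicate 1 Trp53inp1 was at -0.18.

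**Figure D5:**
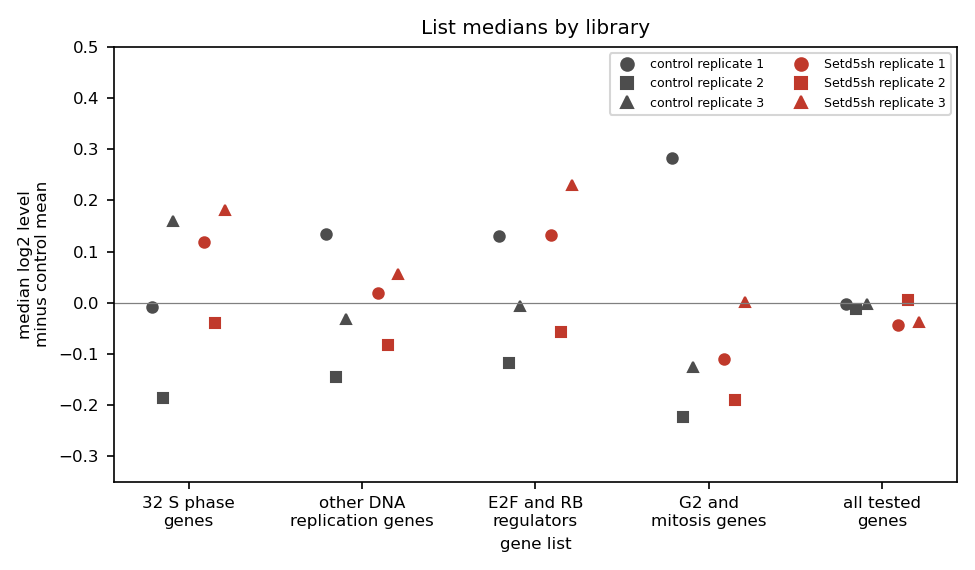
Median log2 level of gene lists in each library, relative to the control mean. The lists are the 32 S phase members, other DNA replication genes, E2F and RB regulators, G2 and mitosis genes, and all tested genes. The G2 and mitosis list is highest in control replicate 1, at 0.283, while the S phase members lie between -0.186 and 0.182 in all 6 libraries.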

How the data were processed

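Polyadenylated RNA was sequenced in 3 control and 3 Setd5sh libraries. The authors deposited whole-number read counts and FPKM values per gene; per the submitters' processing notes, the tools were HISAT2, HTSeq, SAMtools and DESeq2 and the build mm10. The sources used here do not name the annotation release or the strand setting. Deposited FPKM values equal counts scaled by exonic length and total count within 0.005. GENCODE M21 supplied symbols, positions and the GC content of each gene's longest transcript, and held 99.5% of the identifiers.

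Counts of genes with a mean of at least 1 FPKM were scaled by TMM and tested with edgeR 4.0.16 (quasi-likelihood, two-sided, R 4.3.3), with Benjamini-Hochberg adjustment over 12199 genes and a threshold of 0.05. The standard error (SE) of a fold change was its absolute log2 value divided by the square root of edgeR's quasi-likelihood F statistic. The script was tested on simulated data. DESeq2 1.42.0, limma 3.58.1 on log2(FPKM + 1) and log2(FPKM + 0.1) of the deposited values, other scalings and filters, GC and length offsets, a replicate block and leaving out each library were alternatives. Deviations from group means of same-numbered libraries correlated at 0.180, 0.634 and 0.149 for numbers 1, 2 and 3, and the labels state no pairing. The main fit therefore did not pair libraries, and only the replicate block and the comparisons by pair used the numbers. Control replicate 1 correlated at 0.143 with Setd5sh replicate 3.

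The members and gene lists were chosen with earlier results of these data known. Values per library are given for the MCM subunits, the 2 members of smallest p in each other role and the 3 highest and 3 lowest fold changes; in other lists, the 3 genes of smallest p in each direction are named. Clspn and the 8 members high in control replicate 1 were chosen after their values were seen.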

Additional observations from a re-analysis of the deposited data

How the results depend on the processing

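With no filter on low values, edgeR called 73 of 29462 genes, against 0 with the filter; none was a member, and Smc4, Cenpf and Kif20b were among them. Every other alternative tried, the replicate block among them, called 0 genes. The members' median moved by less than the replicate spread in all, and the 6 MCM subunits, Cdc6, Cdc45, Rrm2, Uhrf1, Cdca7, Ubr7 and E2f8 stayed above 0. With GC and length offsets, signs changed for Gins2 (-0.066), Prim1 (0.071), Fen1 (-0.054), Ccne2 (0.068), Cdkn2c (-0.050), Cdkn1b (0.001) and Btg1 (0.024). With the replicate block, which pairs same-numbered libraries, Prim1 was 0.020 and Clspn 0.037. With the block and these offsets, the values were -0.059 for Gins2, 0.094 for Prim1, -0.056 for Fen1, 0.065 for Ccne2, -0.004 for Cdkn2c, 0.002 for Cdkn1b and 0.070 for Btg1. In limma, Prim1 was 0.028 and Clspn 0.044 with a pseudocount of 0.1, and 0.025 and 0.037 with 1. With no filter, Prim1 was 0.060, Ung 0.017, Clspn 0.042 and Btg1 0.009, and with a mean FPKM of at least 5, Slbp was -0.012. With each library left out in turn, log2 fold changes changed sign within these ranges: Gins2 -0.055 to 0.22, Pola1 -1.22 to 0.24, Prim1 -0.23 to 0.23, Pcna -0.15 to 0.25, Rfc2 -0.007 to 0.29 and Fen1 -0.041 to 0.16. Further ranges were Tyms -0.010 to 0.28, Rrm1 -0.14 to 0.20, Nasp -0.87 to 0.31, Slbp -0.061 to 0.23, Chaf1b -0.030 to 0.29 and Hells -0.99 to 0.22. The next were Ung -0.19 to 0.10, Brip1 -0.76 to 0.17, Blm -0.63 to 0.13, Exo1 -0.058 to 0.21, Clspn -0.25 to 0.41 and Dtl -0.52 to 0.083. Others were Ccne2 -0.73 to 0.31, Npat -0.96 to 0.035, Atr -1.29 to 0.20, Orc4 -0.81 to 0.041, Rb1 -0.71 to 0.012 and Tfdp2 -0.48 to 0.058. The last were Fbxo5 -0.26 to 0.080, Smc4 -1.34 to 0.14, Cenpf -1.75 to 0.40, Kif20b -1.65 to 0.34, Cdkn2c -0.031 to 0.25 and Btg1 -0.14 to 0.045. Results that kept their sign but moved by over 1.5 times were Mcm2 0.13 to 0.40, Mcm3 0.028 to 0.24, Mcm4 0.006 to 0.10, Mcm5 0.096 to 0.43, Mcm6 0.025 to 0.14 and Mcm7 0.096 to 0.34. Likewise, the values were Cdc45 0.052 to 0.33, Rrm2 0.053 to 0.25, Cdca7 0.079 to 0.24, Ubr7 0.002 to 0.16 and E2f8 0.14 to 0.42. For genes outside the members they were Chaf1a 0.13 to 0.29, Asf1b 0.21 to 0.46, E2f7 0.15 to 0.39, E2f2 0.14 to 0.41, Aurka 0.11 to 0.39, Mybl2 0.090 to 0.31, Ube2c 0.025 to 0.35, Cdkn1a 0.17 to 0.69, Trp53inp1 -0.77 to -0.18 and Cdkn1b -0.24 to -0.001. The cause was not tested. Standard errors of 0.13 to 0.57 limit what differences these 6 libraries can show.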
